A study of Mus musculus with 6 samples.

Results

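The proteasome is the barrel-shaped protease that degrades ubiquitin-tagged proteins. Its genes were examined in satellite cells, which are muscle stem cells marked by Pax7. The members were all genes whose symbol consists of Psm, a letter from a to g and a number, which took 48 of the 45527 named genes. They were set apart by role into the 20S core, the immunoproteasome subunits, the 19S particle, the activators with the inhibitor Psmf1, and the assembly chaperones. Of the 48, 46 passed the filter on low counts. The testis form Psma8 and the thymus form Psmb11 did not.

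In the 26S proteasome a 20S core, with rings of alpha and beta subunits, is capped by the 19S particle. The base of the 19S particle, a ring of ATPases with scaffold and ubiquitin-binding subunits, unfolds substrates. Its lid, which carries the deubiquitinase Psmd14, removes ubiquitin. Interferon replaces the catalytic beta subunits by those of the immunoproteasome. When proteasome capacity falls short, the transcription factor Nfe2l1 (also called Nrf1) induces subunit genes through antioxidant response elements. In muscle the proteasome is known for the breakdown of contractile proteins during atrophy, and satellite cells need it to proliferate and survive.

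The cells were sorted 24 h after lower hindlimb muscles had been injured with 30 µl of cardiotoxin, a snake venom peptide that destroys muscle fibres. There were 3 libraries labelled Paxbp1-iKO, from Pax7creER:Paxbp1flox/flox:R26R-YFP mice, and 3 control libraries, from Pax7creER:Paxbp1flox/+:R26R-YFP mice. All mice thus carried the inducible Cre recombinase of the Pax7 gene and a Cre-activated yellow fluorescent protein used for sorting, and the controls carried 1 floxed allele of Paxbp1. Recombination and sorting both depended on Cre in Pax7-expressing cells. Which animals gave which library is not in the labels, and the spread behind the p-values is that between these libraries and may be technical. Named genes held 23299344 to 28016271 counts per iKO-labelled library and 23483305 to 27277555 per control library, and intervals on single counts would cover counting error only. Paxbp1 itself was higher in the libraries labelled iKO, at 110.2 ± 15.4 CPM against 68.6 ± 6.81 CPM in the controls (log2 fold change 0.68 ± 0.13, adjusted p = 0.00954). This goes against the label of a knockout, although counts over the whole gene cannot show whether floxed exons were lost. The libraries are named here by label, and each direction is that of the libraries labelled iKO against the controls. All 10 satellite cell markers were detected. Of these 6 rose (60%, beside 8.15% of all genes) and 3 fell (30%, beside 12.3%). Their sum was 12194 to 12768 CPM in the iKO-labelled libraries and 9661 to 10155 CPM in the controls, and its part in the results on proteasome genes was not tested. Of 41 tested markers of leukocytes, endothelium, fibro-adipogenic cells, mural cells and Schwann cells, none passed the test, beside 20.4% of all genes. Fibro-adipogenic markers were the most abundant of these, with a sum of 848 to 1164 CPM in the iKO-labelled libraries and 1014 to 1122 CPM in the controls. Control 1 had the highest sum in the endothelial, mural and Schwann cell lists, but not in the leukocyte list. The endothelial sum was 134 to 159.7 CPM in the iKO-labelled libraries, against 281 CPM in control 1 and 127 and 77.7 CPM in controls 2 and 3. The mural sum was 63.4 to 96.9 CPM in the iKO-labelled libraries, against 140.3 CPM in control 1 and 69.9 and 38.1 CPM in controls 2 and 3. The Schwann cell sum was 6.90 to 19.4 CPM in the iKO-labelled libraries, against 28.7 CPM in control 1 and 13.6 and 6.13 CPM in controls 2 and 3.

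CPM are counts scaled to the TMM-adjusted library size and compare a gene between libraries. Levels of different genes are compared in the deposited FPKM, which are scaled to gene length. Values are means ± SD (n = 3 per group), fold changes are log2 of iKO-labelled over control ± SE, and adjusted p are those of edgeR's quasi-likelihood test with Benjamini-Hochberg adjustment over all 16252 tested genes. In bulk RNA, fewer cells of a type and less RNA per cell cannot be told apart.

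In the iKO-labelled libraries 4 proteasome genes rose and 8 fell, and 34 did not pass the test. The members that fell included 4 of the 8 lid subunits, the scaffold subunit Psmd1, the assembly chaperone Psmd5, the activator Psme3 and the alpha subunit Psma3. The members that rose were Psmb3 of the beta ring, Psmc2 of the base, the chaperone Psmg4 and the activator Psme4. The 12 called members are 26.1% of the 46 tested, beside 20.4% of all genes. The 4 that rose are 8.70%, beside 8.15% of all genes, and the 8 that fell are 17.4%, beside 12.3%. The counts are thus near the background, and no statement about the proteasome as a set is drawn from them. Groups did not overlap for 18 members (39.1%), beside 39.8% of all genes. Of the 46 tested members 6 were separated upwards, beside 18.9% of all genes, and 12 downwards, beside 20.9%. The median log2 fold change was -0.051 over members and 0.023 over all genes. Members ranged from -0.88 to 0.51 with an SD of 0.28, against an SD of 1.03 over all genes. Summed over members, the level was 11354, 10092 and 9792 CPM in iKO-labelled libraries 1 to 3, against 10574, 10972 and 11299 CPM in control libraries 1 to 3, so the groups overlapped. iKO library 1 had the highest sum of all, and the median over members was -0.13 without it. Scaling by library totals moves the median of all genes by 0.13, and under it 9 members rose and 3 fell, so the split between rises and falls depends on the scaling. The 4 rises became 1 or 2 when any 1 library was dropped, and the 8 falls became 3 to 5 without iKO 2, iKO 3, control 2 or control 3.

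**Figure D1:**
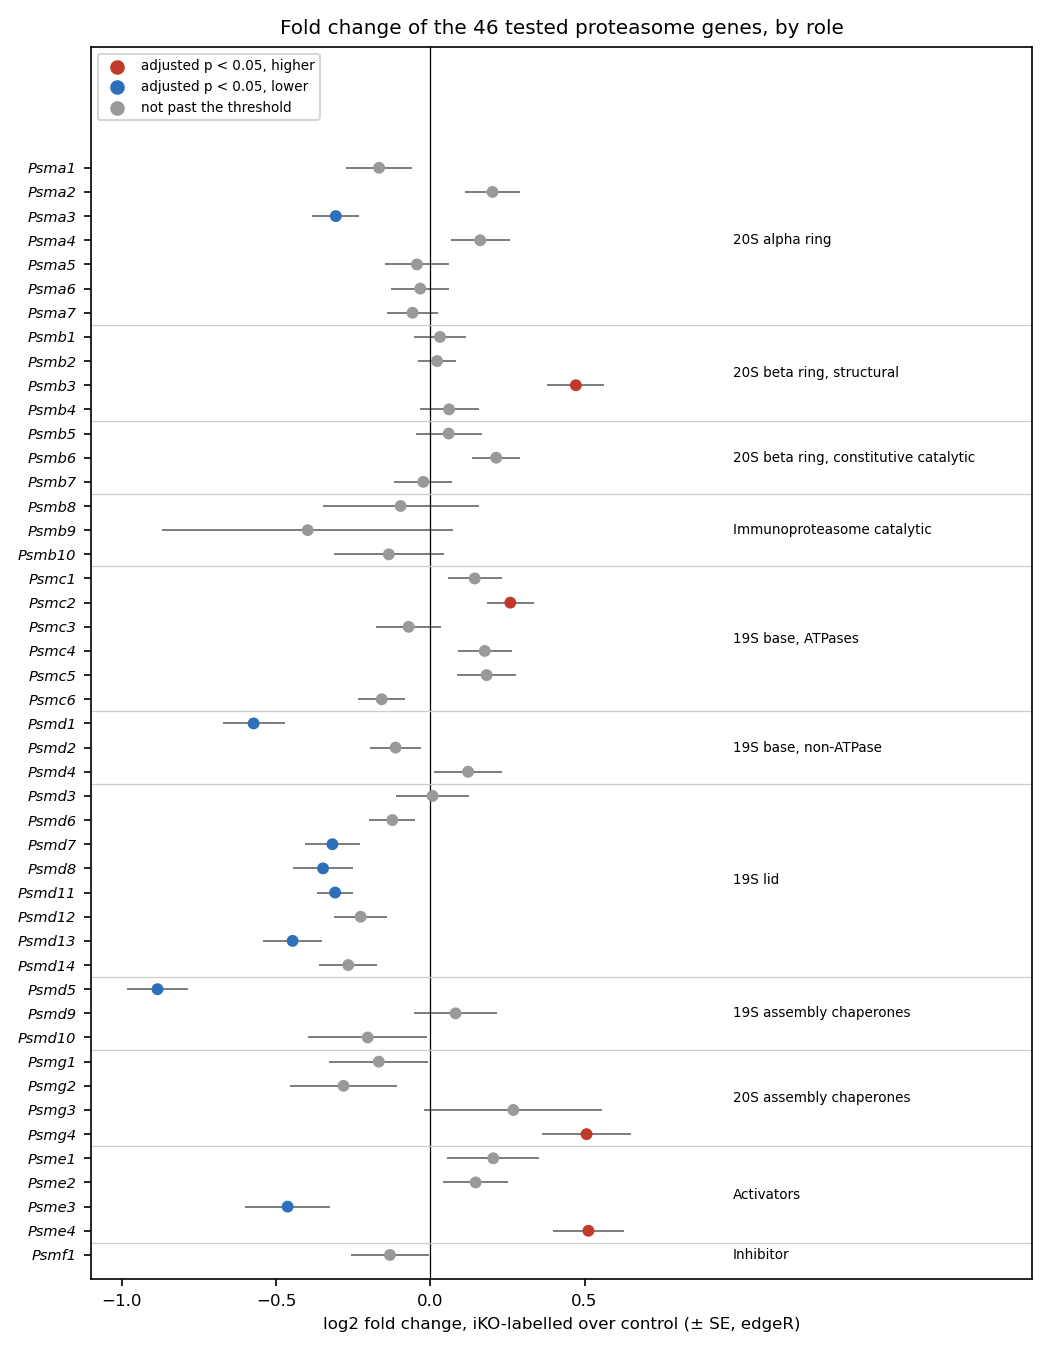
Log2 fold change (x axis, iKO-labelled over control, edgeR, bars ± SE) of the 46 tested members (y axis), grouped by role. Red points passed the test with higher, blue points with lower levels in the iKO-labelled libraries. Of the 8 blue points 4 are lid subunits, and the ATPases of the base lie on both sides of 0, from -0.16 to 0.26.

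Of the 12 calls, 3 held under all 17 alternatives to the processing: Psmb3, which rose, and Psmd1 and Psmd5, which fell. No called member changed sign under any of them. Over the alternatives Psmb3 ran from 0.38 to 0.60, Psmd1 from -0.68 to -0.44 and Psmd5 from -0.93 to -0.75.

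**Figure D2:**
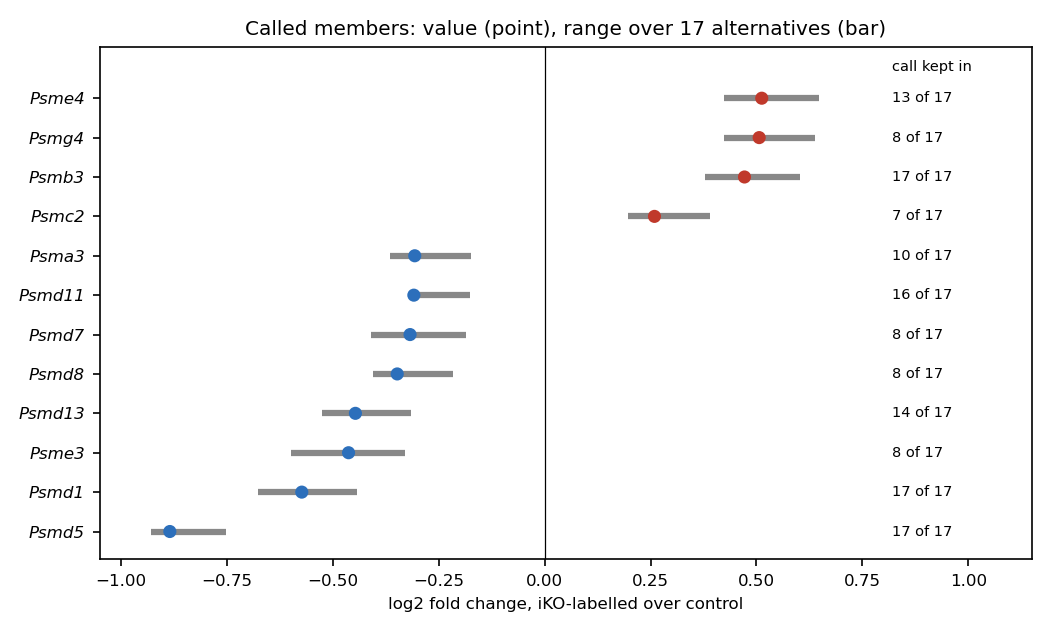
Log2 fold change (x axis, iKO-labelled over control) of the 12 called members, with points at the reported value and bars over the range of the 17 alternatives. The numbers on the right give in how many alternatives the call was kept, which runs from 7 (Psmc2) to 17 (Psmb3, Psmd1 and Psmd5).

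The sequence before the RefSeq start of Psmb3, Psmd1 and Psmd5 is shown because the antioxidant response element, through which Nfe2l1 acts, can be looked for in it. Windows of 300 bases (250 before to 50 after the start, RefSeq, GRCm38.p6) were found for 40 of the 48 members, in 43 windows. The element was searched as TGANNNNGC on both strands, and the 250 bases before the start are printed 5′ to 3′ on the strand of the gene, with each match in capitals. The printed stretches are chr11:97703184-97703433 (plus strand) for Psmb3, chr1:86064369-86064618 (plus strand) for Psmd1 and chr2:34870963-34871212 (minus strand) for Psmd5. The GENCODE M21 annotation starts these genes earlier, at 97703399 for Psmb3, 86064387 for Psmd1 and 34874968 for Psmd5. By that annotation the stretch of Psmd5 lies wholly within the gene and the others partly. Each marked match lies within the annotated gene.
Psmb3: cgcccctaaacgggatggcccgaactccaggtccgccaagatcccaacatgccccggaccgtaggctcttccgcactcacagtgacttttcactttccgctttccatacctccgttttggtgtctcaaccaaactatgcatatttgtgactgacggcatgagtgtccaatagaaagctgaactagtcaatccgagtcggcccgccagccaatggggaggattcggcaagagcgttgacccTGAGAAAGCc
Psmd1: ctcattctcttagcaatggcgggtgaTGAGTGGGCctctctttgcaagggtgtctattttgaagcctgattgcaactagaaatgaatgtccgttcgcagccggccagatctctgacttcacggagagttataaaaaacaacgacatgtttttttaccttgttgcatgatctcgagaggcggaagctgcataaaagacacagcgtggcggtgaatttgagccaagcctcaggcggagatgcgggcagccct
Psmd5: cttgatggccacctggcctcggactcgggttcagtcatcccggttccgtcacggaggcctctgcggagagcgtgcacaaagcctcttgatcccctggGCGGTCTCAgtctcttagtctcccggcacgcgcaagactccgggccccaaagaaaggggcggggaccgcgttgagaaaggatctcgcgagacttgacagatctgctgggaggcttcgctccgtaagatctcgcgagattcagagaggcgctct
Each of these stretches holds 1 match, whichever way the gene moved, and that of Psmd5 reads on the other strand. The counts that follow are over the whole windows of 300 bases, so they include matches in the 50 bases after the start, which are not printed. A match was present for 23 of 40 members (57.5%), beside 48.0% of tested genes and 45.0% of all 27025 genes in the table. By call, it was present for 4 of 4 members that rose, 4 of 7 that fell and 14 of 28 that were not called. The interferon-stimulated response element, searched as GAAA, any 2 bases and GAAA again, was present for 5 of 40 members (12.5%), beside 3.7% of tested genes, and for none of the 3 immunoproteasome genes in these windows. The gamma-activated site, searched as TTCNNNGAA, was present for 3 of 40 members (7.5%), beside 8.2% of tested genes. The CCAAT box was present for 14 of 40 (35.0%), beside 42.1%. Matches of the different motifs may overlap, and a match is a description of letters, not of binding.

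The lid had the lowest median of the classes. Among 8 lid subunits there were 4 falls (50%, beside 12.3% of all genes) and no rise (median log2 fold change -0.29). For 7 of the 8 all iKO-labelled libraries were under all controls, where 20.9% of all genes were separated downwards. Psmd11, a scaffold subunit that joins the lid to the core particle, had 462, 455 and 459.8 CPM in the iKO-labelled libraries, against 581, 570.4 and 553 CPM in the controls. The iKO-labelled libraries lay close together, and none came near the controls (-0.31 ± 0.058, adjusted p = 0.00859). Psmd13, another scaffold subunit, had 176, 158 and 144 CPM in the iKO-labelled libraries, against 207, 215 and 228 CPM in the controls (-0.45 ± 0.094, adjusted p = 0.0133). Psmd13 changed most within the lid. Psmd8, the last subunit to join the lid in yeast, had 238, 232 and 194 CPM in the iKO-labelled libraries, against 261, 296 and 287 CPM in the controls (-0.35 ± 0.098, adjusted p = 0.0412). Psmd7, the inactive partner of the deubiquitinase, had 308, 255 and 261 CPM in the iKO-labelled libraries, against 334, 336 and 356 CPM in the controls (-0.32 ± 0.089, adjusted p = 0.040). In both genes the highest iKO-labelled library stood below the lowest control. The calls of Psmd7 and Psmd8 ended when any of 5 libraries was dropped (highest adjusted p 0.143 and 0.125), the exceptions being iKO 1 for Psmd7 and control 1 for Psmd8. The call of Psmd13 ended without iKO 2 or control 3 (adjusted p up to 0.0563). Psmd11 stayed called when any 1 library was dropped (highest adjusted p 0.0425), but not when libraries were scaled by their totals (-0.18, adjusted p = 0.0644). By class, the 4 falls became 1 without iKO 2 or control 3, 2 without iKO 3 or control 2, and 3 without iKO 1. Without control 1 there were 4, with Psmd12 in place of Psmd7. The count also depended on scaling and method. It became 2 (Psmd11 and Psmd13) with RLE factors and with limma on log2(FPKM + 1) without a filter. Only Psmd13 stayed called under library totals, and only Psmd11 with the replicate block.

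The deubiquitinase itself was not called. Psmd14 had 222, 215 and 179 CPM in the iKO-labelled libraries, against 245, 246 and 249 CPM in the controls (-0.27 ± 0.095, adjusted p = 0.0887). Psmd12 stood at 219 ± 6.27 CPM in the iKO-labelled libraries and 256 ± 22.7 CPM in the controls (-0.23 ± 0.085, adjusted p = 0.105), and passed the test without control 1 (adjusted p = 0.0434). Both are on the same side as the called lid genes, with groups that did not overlap. Psmd6, also a scaffold subunit, was at -0.12 ± 0.075. The small lid subunit Sem1, which the naming rule leaves out and which was added after its value had been seen, lay on the other side. It stood at 107 ± 6.44 CPM in the iKO-labelled libraries and 94.8 ± 7.73 CPM in the controls, with groups that did not overlap (0.18 ± 0.10, adjusted p = 0.279). Psmd3 was the one of the 8 with overlapping groups, at 301 ± 43.2 CPM in the iKO-labelled libraries and 299 ± 29.0 CPM in the controls (0.0075 ± 0.12, adjusted p = 0.974).

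In the base of the 19S particle the values of the ATPases lay mostly above 0. Among the 6 ATPases, which form the unfolding ring, there was 1 rise (16.7%, beside 8.15% of all genes). There was no fall, beside 12.3% of all genes. The median was 0.16, and the difference from the lid was not tested. Psmc2 had 340.5, 308 and 297 CPM in the iKO-labelled libraries, against 258, 270.2 and 262 CPM in the controls (0.26 ± 0.076, adjusted p = 0.0470). All iKO-labelled libraries lay above all controls, but dropping any 1 library ended the call (highest adjusted p 0.120). The call of Psmc2 also ended with no count filter (adjusted p = 0.0909), the length trend removed (0.0605) and the replicate block (0.122). With limma on log2(FPKM + 1) without a filter it ended too (0.0875). Psmc5 (0.18 ± 0.097), Psmc4 (0.18 ± 0.088) and Psmc1 (0.14 ± 0.087) were not called, nor were Psmc3 (-0.070 ± 0.10) and Psmc6 (-0.16 ± 0.076). Scaled by library totals, 4 ATPases passed the test upwards. Under that scaling 20.7% of all genes were called, and 57.2% of those were higher.

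The non-ATPase subunits of the base included the largest fall among structural subunits. Psmd1, the large scaffold that docks other subunits, had 468, 414 and 355 CPM in the iKO-labelled libraries, against 594, 626 and 621 CPM in the controls. The iKO-labelled libraries were spread, and the highest was still far below the lowest control (-0.57 ± 0.10, adjusted p = 0.00623). Psmd2, the other large scaffold and the most abundant member by CPM, stood at 719 ± 63.8 CPM in the iKO-labelled libraries and 777 ± 47.8 CPM in the controls (-0.11 ± 0.082, adjusted p = 0.403). The ubiquitin receptor Psmd4 stood at 311 ± 46.8 CPM in the iKO-labelled libraries and 285 ± 9.98 CPM in the controls (0.12 ± 0.11, adjusted p = 0.50). Of the 2 large scaffolds 1 was called, and the difference between them was not tested.

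Ratios between class sums do not depend on the scaling of a library. They were chosen after the values had been seen and have no test. The summed CPM of the lid per summed CPM of the base ATPases was 0.950, 1.01 and 0.990 in iKO-labelled libraries 1 to 3, against 1.25, 1.22 and 1.24 in control libraries 1 to 3. The lid per 20S core was 0.497, 0.517 and 0.508 in the iKO-labelled libraries, against 0.613, 0.625 and 0.605 in the controls. Both ratios were lower in each iKO-labelled library than in each control. The base ATPases per 20S core were 0.523, 0.512 and 0.514 in the iKO-labelled libraries, against 0.489, 0.511 and 0.486 in the controls, a narrower gap. These are sums of CPM not divided by gene length, so long genes weigh more in them. In percent of the control mean, the lid sum was 84.0 ± 5.42 in the iKO-labelled libraries and 100 ± 2.88 in the controls, and the 20S core sum was 102 ± 8.28 in the iKO-labelled libraries and 100 ± 4.05 in the controls.

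**Figure D3:**
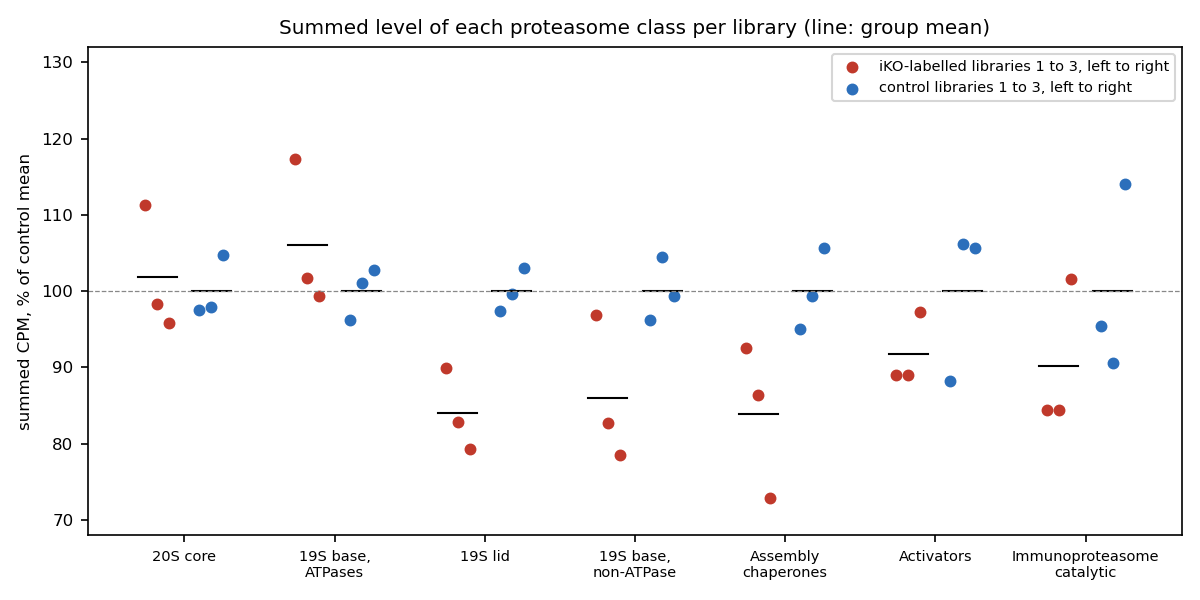
Summed CPM of each class in each library, in percent of the control mean (y axis, not starting at 0), with iKO-labelled libraries in red on the left and controls in blue on the right of each class, and lines at group means. The lid lies between 79.3 and 89.9 in the iKO-labelled libraries and between 97.3 and 103 in the controls. iKO library 1 is the highest of the iKO-labelled libraries in 5 of the 7 classes, and the groups overlap in the 20S core.

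In the 20S core 2 of 14 subunits were called (14.3%, beside 20.4% of all genes), 1 in each direction. Psmb3, a structural subunit of the beta ring, had 381, 314 and 323 CPM in the iKO-labelled libraries, against 232, 248 and 254 CPM in the controls. The lowest of the iKO-labelled libraries was well above the highest control (0.47 ± 0.092, adjusted p = 0.00965). Psma3, of the alpha ring, had 474, 426 and 422 CPM in the iKO-labelled libraries, against 573, 514 and 548 CPM in the controls (-0.31 ± 0.076, adjusted p = 0.0248). Groups were separated in the other direction there, but the call ended without iKO 2 or 3 or control 1 or 3 (adjusted p up to 0.0980). The call of Psma3 also ended under library totals (adjusted p = 0.129) and with the replicate block (0.0533). With limma on log2(FPKM + 1) without a filter it ended too (0.0734). The other 12 core subunits lay between -0.17 (Psma1) and 0.21 (Psmb6), and 1 of them, Psmb6, had groups that did not overlap.

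By deposited FPKM, the order of levels within the core was alike at its ends in every library. Per length, the median of the 14 core subunits was 147 to 177 FPKM in the iKO-labelled libraries and 148 to 156 FPKM in the controls. Psma4 had the lowest and Psma2 the highest level in each of the 6 libraries. They were 3.40 to 3.56 times apart in the iKO-labelled libraries and 3.32 to 3.42 times apart in the controls. This order rests on the deposited lengths, 2.37 kb for Psma4 and 0.944 kb for Psma2, which are the same in every library. GENCODE M21 gives 2370 exon bases for Psma4 but 3673 for Psma2. By CPM, Psma4 stood at 229 ± 20.8 and Psma2 at 315 ± 26.2 in the iKO-labelled libraries. In the controls they stood at 204 ± 15.9 and 274 ± 19.2 CPM. In the 19S particle the lowest level was that of Psmd13 in the iKO-labelled libraries (41.8 to 51.1 FPKM) and that of Psmc2 in the controls (49.5 to 52.7 FPKM). By mean CPM over all 6 libraries, core subunits lay between percentiles 87.9 and 98.1 of all tested genes, and 19S subunits between percentiles 93.3 and 99.0. Core and 19S subunits were thus among the abundant messages by CPM, which is not divided by gene length. The other tested members ran from percentile 29.1 (Psmb9) to 95.1 (Psme3).

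None of the catalytic subunits passed the test. Psmb6 (the caspase-like beta 1) had 409, 355 and 369 CPM in the iKO-labelled libraries, against 310.3, 337 and 330.3 CPM in the controls. The groups were separated upwards without passing the test (0.21 ± 0.078, adjusted p = 0.0963), and DESeq2 called it (adjusted p = 0.0303). Psmb7 (the trypsin-like beta 2) had 234, 195 and 194 CPM in the iKO-labelled libraries, against 206, 206 and 221 CPM in the controls (-0.023 ± 0.094). Psmb5 (the chymotrypsin-like beta 5, the main target of proteasome inhibitors) had 127, 108 and 106 CPM in the iKO-labelled libraries, against 105, 105 and 117 CPM in the controls (0.060 ± 0.11). iKO library 1 was the highest library in all 3 genes.

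Immunoproteasome subunits were a small share of the catalytic message. Psmb9 (beta 1i), which takes the place of Psmb6, had 1.96, 2.45 and 2.55 CPM in the iKO-labelled libraries, against 2.46, 1.97 and 4.75 CPM in the controls (-0.40 ± 0.47, adjusted p = 0.623). Control library 3 was the highest, and without it the value was 0.081. Psmb10 (beta 2i), which takes the place of Psmb7, had 17.5, 17.9 and 22.9 CPM in the iKO-labelled libraries, against 20.3, 20.4 and 23.2 CPM in the controls (-0.13 ± 0.18). Psmb8 (beta 5i), which takes the place of Psmb5, had 6.90, 6.0 and 6.24 CPM in the iKO-labelled libraries, against 6.97, 5.88 and 7.62 CPM in the controls (-0.096 ± 0.25). Groups overlapped for all 3, and 95% intervals of the fold (normal, from the SE) ran from 0.401 to 1.44 for Psmb9, from 0.715 to 1.16 for Psmb10 and from 0.663 to 1.32 for Psmb8. These intervals include folds on both sides of 1.

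Per length, in FPKM, Psmb10 was at 9.05% ± 2.08 of Psmb7 in the iKO-labelled libraries and 9.64% ± 0.339 in the controls. Psmb8 was at 1.79% ± 0.0794 of Psmb5 in the iKO-labelled libraries and 1.99% ± 0.177 in the controls. Psmb9 was at 0.318% ± 0.0626 of Psmb6 in the iKO-labelled libraries and 0.480% ± 0.228 in the controls. Taken as sums, the 3 immunoproteasome genes made 3.02%, 3.57% and 4.39% of the 3 constitutive ones in iKO-labelled libraries 1 to 3, against 4.21%, 3.99% and 4.53% in control libraries 1 to 3. These shares are a description with no test, and their size rests on the deposited lengths. Those are 2.736 kb for Psmb8 against 0.871 kb for Psmb5, and 3.659 kb for Psmb9 against 1.872 kb for Psmb6. Psmb10 (1.27 kb) and Psmb7 (1.214 kb) are closer in length. Leukocytes also express the immunoproteasome. The 17 leukocyte markers summed to 212, 282 and 363 CPM in iKO-labelled libraries 1 to 3, against 222, 246 and 300.3 CPM in control libraries 1 to 3, and none of them was at 0 in all libraries. In each group the libraries with the highest marker sum also had the highest sum of the immunoproteasome genes, and the part of leukocytes in their level was not tested. Psmb11 had 0, 1 and 6 counts in the iKO-labelled libraries and 13, 0 and 0 counts in the controls. Psma8 had 0, 3 and 1 counts in the iKO-labelled libraries and 0 in each control. A count of 0 allows 3 counts, or up to 0.134 CPM.

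**Figure D4:**
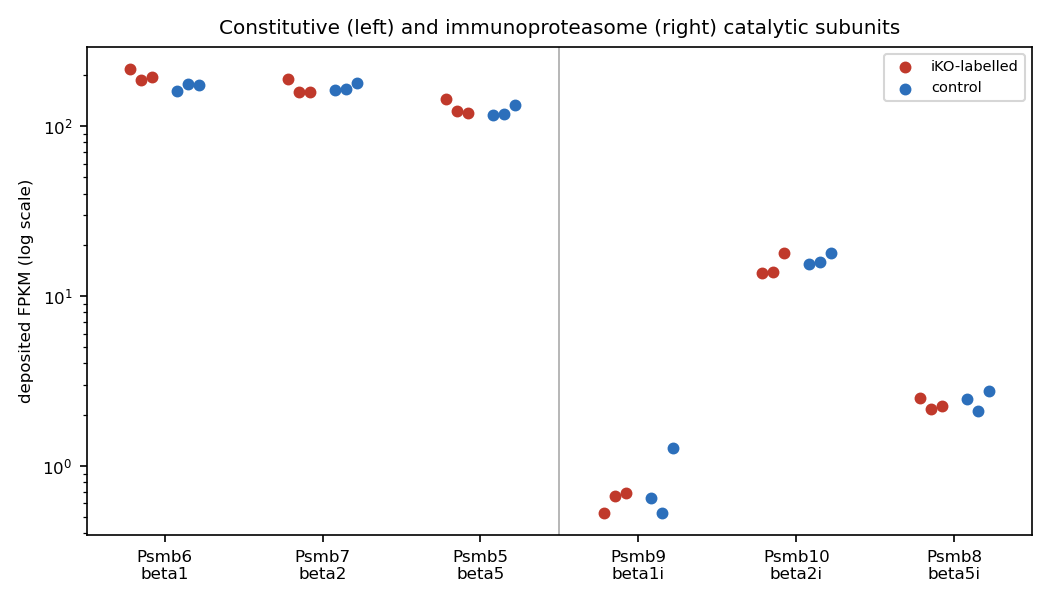
Deposited FPKM (y axis, log scale) of the constitutive catalytic subunits on the left and their immunoproteasome counterparts on the right, with iKO-labelled libraries in red and controls in blue, 1 point per library. Group means of the constitutive genes are 122 to 199 FPKM, those of Psmb10 are 15.1 and 16.4 FPKM, and those of Psmb8 and Psmb9 are at most 2.43 FPKM in both groups.

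The activators went in both directions. Psme4, a nuclear activator that opens the core without ubiquitin, had 74.9, 72.9 and 87.9 CPM in the iKO-labelled libraries, against 52.3, 57.1 and 55.9 CPM in the controls (0.51 ± 0.12, adjusted p = 0.0177). All iKO-labelled libraries lay above all controls, and the call ended without iKO 3 or control 1 (adjusted p up to 0.0631). The call of Psme4 also ended with the replicate block (adjusted p = 0.0533) and with limma on log2(FPKM + 1) without a filter (0.0538). Psme3, a nuclear activator that promotes the degradation of a cell cycle inhibitor, had 182, 207 and 228 CPM in the iKO-labelled libraries, against 228, 309 and 313 CPM in the controls (-0.46 ± 0.14, adjusted p = 0.0499). Control 1 stood just above the highest iKO-labelled library, far below the other controls, and the call ended when any library but control 1 was dropped (adjusted p up to 0.166). The call of Psme3 also ended with RLE factors (adjusted p = 0.0628), library totals (0.149) and the length trend removed (0.0673). With limma on log2(FPKM + 1) without a filter it ended too (0.180). The interferon-induced pair Psme1 and Psme2 was not called. Psme1 stood at 60.2 ± 7.46 CPM in the iKO-labelled libraries and 52.3 ± 7.36 CPM in the controls (0.20 ± 0.15), and Psme2 at 81.8 ± 5.67 CPM in the iKO-labelled libraries and 73.9 ± 4.47 CPM in the controls (0.15 ± 0.11). A near-identical copy, Psme2b, has its own row with 231 to 290 counts in the iKO-labelled libraries and 185 to 236 in the controls, so reads of this pair could be split. Psmf1, known as an inhibitor of the core in vitro, stood at 41.3 ± 3.95 CPM in the iKO-labelled libraries and 45.2 ± 1.98 CPM in the controls (-0.13 ± 0.13).

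Among the assembly chaperones Psmd5 showed the largest change of all members. Psmd5, which holds the base ATPases during assembly and must leave before the 26S proteasome forms, had 66.5, 68.4 and 58.9 CPM in the iKO-labelled libraries, against 118, 119.5 and 119.9 CPM in the controls. The controls lay close together, and every iKO-labelled library was far below them (fold 0.542, log2 fold change -0.88 ± 0.097, adjusted p = 7.8e-04). The other base chaperones were not called, with Psmd9 at 0.082 ± 0.14 and Psmd10 (gankyrin) at -0.20 ± 0.19. Of the 4 chaperones that pair up to build the alpha ring, Psmg4 rose. It had 36.5, 32.6 and 29.6 CPM in the iKO-labelled libraries, against 24.1, 22.5 and 22.9 CPM in the controls (0.51 ± 0.14, adjusted p = 0.0413). Dropping any 1 library ended the call (highest adjusted p 0.129). The call of Psmg4 also ended with no count filter (adjusted p = 0.0753), the length trend removed (0.0579) and the replicate block (0.0907). Its partner Psmg3 stood at 15.3 ± 1.99 CPM in the iKO-labelled libraries and 12.7 ± 4.89 CPM in the controls (0.27 ± 0.29). The other pair, Psmg1 (-0.17 ± 0.16) and Psmg2 (-0.28 ± 0.17), was not called.

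**Figure D5:**
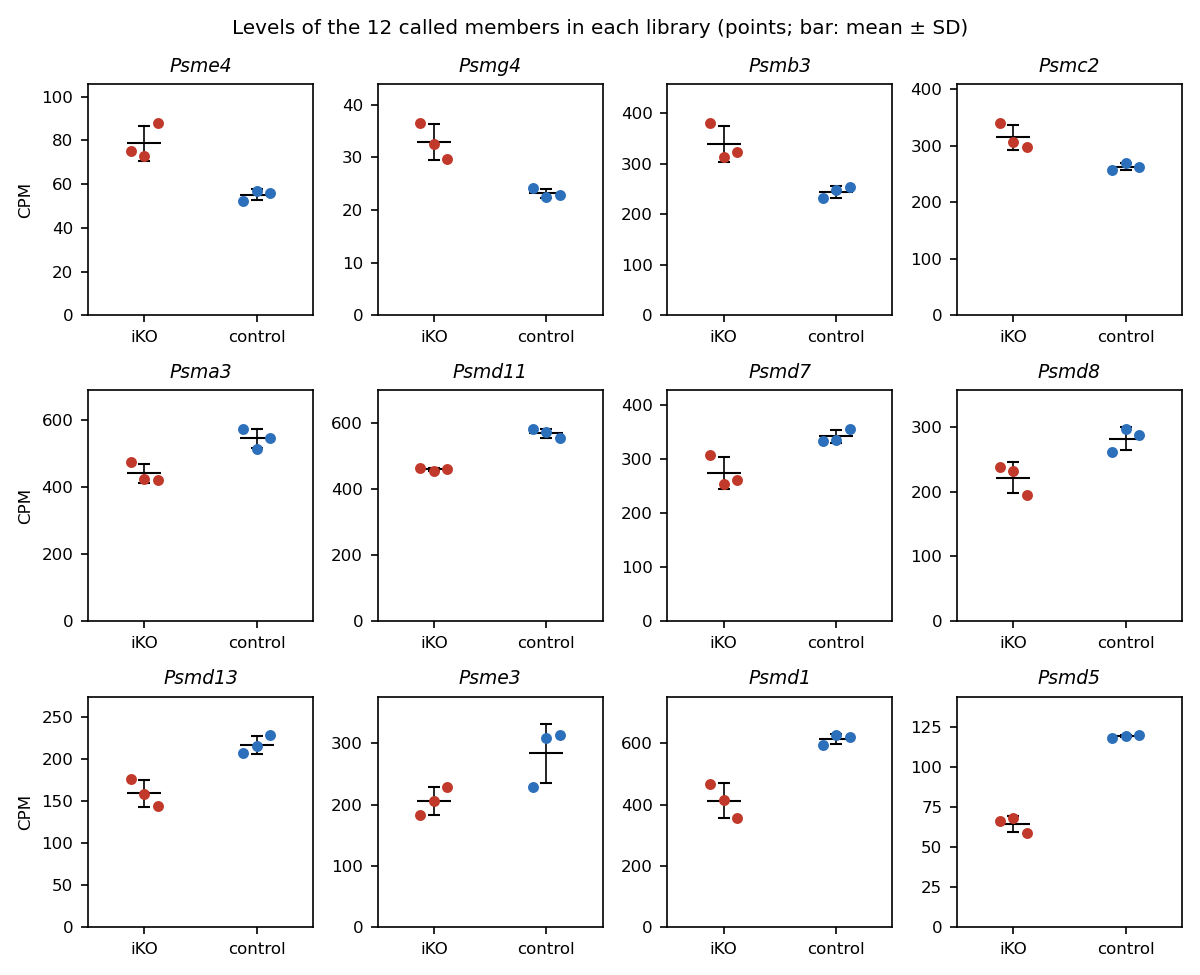
CPM (y axes, from 0) of the 12 called members in each library, with iKO-labelled libraries on the left in red, controls on the right in blue, and bars at mean ± SD (n = 3). Groups do not overlap in any panel, though in Psme3 they all but touch, and the distance between them is widest relative to the control level in Psmd5, at 64.6 against 119 CPM.

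Psmb9 lies beside Tap1, a subunit of the transporter that carries peptides to MHC class I molecules, and 212 bases of their annotated exons (GENCODE M21) overlap on opposite strands. Smart-Seq2 does not mark strand, so reads there could belong to either gene. Tap1 had 29.0, 35.7 and 37.2 CPM in the iKO-labelled libraries, against 22, 16.7 and 17.6 CPM in the controls (0.86 ± 0.18, adjusted p = 0.0122), and its call ended without iKO 2 or iKO 3 (adjusted p up to 0.0560). Psmb9 was not called, and the difference between the neighbours was not tested. Among the other catalytic subunits, Psmb8 shares 498 exon bases with Gm20496 and Psmb7 shares 405 with Nek6, both on the other strand. Psmb5 shares 109 with Mir686 on the same strand. Nek6 was not called (0.23 ± 0.12, adjusted p = 0.228), and Gm20496 and Mir686 have no tested value. Among the called members, Psmd13 shares 342 exon bases with Sirt3 on the other strand (0.56 ± 0.31, adjusted p = 0.270) and Psmd1 shares 252 with Htr2b (0.35 ± 0.33, adjusted p = 0.521), neither of which was called. Psmd1 also shares 301 exon bases on the same strand with Gm21972, which has no tested value, so reads there could belong to either.

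Genes that work with the proteasome but carry other names were counted in the same fit. Of 17 associated and assembly factors, 2 rose (11.8%, beside 8.15% of all genes) and 6 fell (35.3%, beside 12.3%), with a median of -0.17. Uchl5, a deubiquitinase of the 19S particle, had 46.5, 38.2 and 40.2 CPM in the iKO-labelled libraries, against 83.4, 90.4 and 89.4 CPM in the controls (-1.08 ± 0.12, adjusted p = 7.8e-04). Adrm1, the ubiquitin receptor on which Uchl5 docks, had 329, 281 and 283 CPM in the iKO-labelled libraries, against 219.6, 226 and 222 CPM in the controls (0.42 ± 0.083, adjusted p = 0.00989). The receptor and its partner thus moved in opposite directions, with no overlap of groups in either. The other deubiquitinase, Usp14, fell (-0.40 ± 0.078, adjusted p = 0.00938), as did the shuttle factor Ubqln1 (-0.35 ± 0.062, adjusted p = 0.00627). The calls of these 4 genes held under all 17 alternatives. Pomp, the chaperone of the beta ring, was singled out after its value had been seen and stood at 178 ± 4.42 CPM in the iKO-labelled libraries and 148 ± 10.2 CPM in the controls (0.26 ± 0.083, adjusted p = 0.0595). It passed the threshold under 5 of the 17 alternatives, DESeq2 among them (adjusted p = 0.0126).

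In the Nrf1 pathway, 2 of 11 genes fell (18.2%, beside 12.3% of all genes) and no gene rose (median -0.21), a count near the background. Nfe2l1 itself stood at 196 ± 30.2 CPM in the iKO-labelled libraries and 251 ± 17 CPM in the controls (-0.35 ± 0.12, adjusted p = 0.0709). It passed the threshold with no count filter (adjusted p = 0.0374), with DESeq2 (0.0267) and without iKO 1 (0.0170). Its relative Nfe2l2 stood at 382 ± 21.8 CPM in the iKO-labelled libraries and 441 ± 15.5 CPM in the controls (-0.21 ± 0.071, adjusted p = 0.0737). The members that fell were targets of Nfe2l2 outside the proteasome. Hmox1, the haem oxygenase, had 2410.0, 2545 and 2694 CPM in the iKO-labelled libraries, against 5062, 4498 and 4533 CPM in the controls (-0.88 ± 0.066, adjusted p = 1.7e-04). Nqo1, a quinone reductase, had 7.36, 9.34 and 6.0 CPM in the iKO-labelled libraries, against 27.7, 26.6 and 27.9 CPM in the controls (-1.85 ± 0.21, adjusted p = 8.9e-04). Of 6 genes of ubiquitin supply, 1 fell (16.7%, beside 12.3% of all genes) and none rose. It was Uba1, the main ubiquitin-activating enzyme (-0.48 ± 0.067, adjusted p = 0.00219). Among 8 muscle ubiquitin ligases there were 2 falls (25%, beside 12.3% of all genes) and no rise. Nedd4 had 327, 370.4 and 322 CPM in the iKO-labelled libraries, against 564, 588 and 633 CPM in the controls (-0.81 ± 0.082, adjusted p = 5.7e-04). The atrophy ligase Fbxo32 stood at 21.1 ± 0.929 CPM in the iKO-labelled libraries and 39.1 ± 6.93 CPM in the controls (-0.89 ± 0.17, adjusted p = 0.00860).

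Of 16 genes of interferon signalling and MHC class I presentation, 2 rose (12.5%, beside 8.15% of all genes) and 2 fell (12.5%, beside 12.3%), with a median of -0.037, which is near the background. Stat2, a transcription factor of interferon signalling, had 30.7, 28.5 and 25.5 CPM in the iKO-labelled libraries, against 11.2, 7.50 and 7.16 CPM in the controls (1.71 ± 0.22, adjusted p = 0.00177). Beside Stat2 and Tap1, the factors Irf1 (0.44 ± 0.14, adjusted p = 0.0562) and Irf9 (0.81 ± 0.25, adjusted p = 0.0573), singled out after their values had been seen, had separated groups and missed the threshold. Irf1 passed it under 7 of the 17 alternatives and Irf9 under 8, among them DESeq2 (adjusted p = 0.0101 for Irf1 and 0.00834 for Irf9). B2m of the same list, also singled out after its value had been seen, was not called and lay on the other side. It passed the threshold downwards under 5 of the 17 alternatives, DESeq2 among them (-0.29, adjusted p = 0.0203). The members that fell were the chaperones Pdia3 (-0.36 ± 0.072, adjusted p = 0.0111) and Canx (-0.32 ± 0.081, adjusted p = 0.0264). The call of Pdia3 ended without iKO 2 (adjusted p = 0.0502), and that of Canx when any library but iKO 1 was dropped (adjusted p up to 0.103). The 3 immunoproteasome genes, which interferon is known to induce, were not called beside them.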

How the data were processed

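RNA of YFP-positive sorted cells was made into Smart-Seq2 libraries, 3 labelled iKO and 3 control. Per the submitters' processing notes, which give no roles, order or versions, Trim Galore, STAR, featureCounts (Subread), DESeq2 and the mm10 build were used. The deposited raw counts per gene entered the main test. The deposited FPKM equal the counts scaled by length and by median-of-ratios size factors, to a relative deviation of at most 9.2e-15 over 11966 genes. They were used for levels per length and in alternatives. Of 46078 rows, 551 without a gene name (0.108% to 0.123% of counts) were left out. Low genes were removed by filterByExpr (at least 10 counts, total 15). The rest were TMM-scaled, tested with edgeR 4.0.16's quasi-likelihood test on group alone (R 4.3.3) and called at an adjusted p under 0.05. The code was tested on simulated data with the same dispersion for every gene, and no support for the calls is drawn from that. SE is the size of the log2 fold change over the square root of F. Alternatives used DESeq2 1.42.0, limma 3.58.1, other scalings and filters, and each library left out. Every member could be named, with values per library for the catalytic subunits and for up to 4 members per class of smallest adjusted p. Of each other list up to 4 genes of smallest adjusted p were named. The members and lists were chosen with earlier results of these data known. Library totals allow counts near 0 to be resolved to about 0.102 to 0.134 CPM, the level of 3 counts. No source used here says how reads in overlapping genes and near copies were handled. Paaf1, a base chaperone, was not analysed here.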

Additional observations from a re-analysis of the deposited data

How the results depend on the processing

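Of 12 called members 3 kept their call under all 17 alternatives, none changed sign, and 6 of 34 others passed the threshold under at least 1. Against 4 rises, there were 9 under library totals, 7 with a stricter count filter, 2 with no count filter, 2 with limma on log2(FPKM + 1) without a filter and 2 with the length trend removed. Against 8 falls, there were 5 with RLE factors, 3 under library totals and 4 with limma without a filter. Leaving out 1 library in turn gave 1 to 2 rises, 3 to 7 falls and 2053 to 2816 genes called of 3315 (2053 without iKO 2, 2103 without iKO 3). Between libraries of the same replicate number, deviations from the group mean had correlations of -0.087, -0.0077 and -0.062. With 3 libraries per group the deviations are tied to each other, so they cannot show whether the numbers mark pairs. With the replicate block 1 member rose, 4 fell and 2215 genes were called. With library totals 57.2% of called genes were higher, against 39.9%. The cause was not tested for any of these.

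Members that did not pass the test turned sign as follows. Library totals gave Psma5 0.088, Psma6 0.099, Psma7 0.074, Psmb7 0.11, Psmb8 0.036, Psmc3 0.061, Psmd2 0.020, Psmd6 0.0097 and Psmf1 0.0016. The stricter filter gave Psma5 0.025, Psma6 0.036, Psma7 0.011 and Psmb7 0.046. Removing the length trend gave Psmb1 -0.00071 and Psmb2 -0.0045. Leaving out 1 library in turn, the value ran for Psma5 from -0.15 to 0.032, Psma6 from -0.13 to 0.028, Psma7 from -0.12 to 0.014 and Psmb1 from -0.030 to 0.092. It ran for Psmb4 from -0.014 to 0.12, Psmb5 from -0.033 to 0.13, Psmb7 from -0.12 to 0.024 and Psmb8 from -0.19 to 0.0024. Among the rest it ran for Psmb9 from -0.64 to 0.081, Psmd3 from -0.11 to 0.099, Psmd4 from -0.0082 to 0.20 and Psmd9 from -0.024 to 0.19. With 51 to 124 counts per library, Psmb9 is the tested member with the widest interval.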
